A study of Mus musculus with 12 samples.

Results

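The SLC25 family of mitochondrial carriers was examined in single muscle fibers of young and aged mice. Members were taken by name alone, as every gene symbol made of Slc25a and a number, which gave 47 of the 55367 distinct symbols in the expression files. RNA was measured in isolated fibers of the extensor digitorum longus, a fast muscle of the lower hind leg, after staining with Fluo-4, a dye whose fluorescence reports calcium. The 12 samples fell into 3 groups of 4: fibers of young mice (3 to 4 months), fibers of aged mice (26 to 28 months) with normal Fluo-4 staining, and fibers of aged mice with abnormal Fluo-4 staining. The aged fibers of both kinds were sorted by eye under a fluorescence stereomicroscope, so the abnormal group was defined by its staining pattern and not by genotype or treatment. The mice are described as C57BL/6J, with no allele or agent that separates the groups. Per the study's methods the aged mice came from another institution than the purchased ones, so age and source cannot be told apart against Young. The labels give no sex, no number of fibers or mice per sample, and no statement that samples came from separate mice, so p-values measure the spread between these samples only. The paper reports the abnormal staining in aged males and hardly any in aged females, without naming the sex of the sequenced mice. Aged samples with the same number in both Fluo-4 groups were treated as paired in an alternative fit.

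Carriers of this family sit mainly in the inner mitochondrial membrane and move metabolites that the membrane itself does not let through. They bring ADP and phosphate in for ATP synthesis and let ATP out, pass fatty acyl groups in as carnitine esters, and exchange the malate, oxoglutarate, aspartate and glutamate of the malate-aspartate shuttle, which carries the electrons of cytosolic NADH into mitochondria. In skeletal muscle the family is best known for Slc25a4, or adenine nucleotide translocase 1, the ADP/ATP carrier that heart and muscle use most.

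Values are in TPM, a share of each sample's transcripts scaled to transcript length, so levels can be compared between genes. Read depth is not known from TPM. All 12 samples held 16841 to 17936 symbols above 0 TPM. Fiber markers such as Acta1, Ckm and Myh4 were abundant in all of them, and the 4 adipocyte markers Adipoq, Plin1, Cidec and Lep were listed at 0. Myh4, the fastest of the adult myosin heavy chains, made up 96.9% to 98.6% of the summed TPM of Myh1, Myh2, Myh4 and Myh7 in Young, 93.7% to 99.2% in Fluo-4 normal and 98.9% to 99.7% in Fluo-4 abnormal samples. Smooth muscle markers summed to 62.0 TPM in 1 Young sample (replicate 2) and to at most 6.12 TPM in any aged one. With all samples, limma at an adjusted p under 0.05 called 6 carriers lower and 2 higher in abnormal against Young. Of all genes tested, 2.41% were lower and 6.09% higher. Without Young replicate 2 it called 5 lower and 1 higher. The call for Slc25a3 was also lost without any 1 of the other Young samples, and that for Slc25a1 without Young replicate 1 or 4. In normal against Young it called 0 lower and 2 higher with all samples, and 0 in either direction without that one. Of all genes 0.589% were lower and 0.561% higher with all samples. Those 2 calls were also lost without Young replicate 1 or 3 or normal replicate 4. How many of all genes were called without 1 sample was not counted. Because TPM is a share of a bulk sample, fewer cells of a type and less RNA per cell cannot be told apart.

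The family was led by a handful of genes. Averaged over all 12 samples, 44 of 47 members were above 0 TPM, 33 reached 1 TPM, 18 reached 10 TPM, 4 reached 100 TPM and 1 reached 1000 TPM. Slc25a4 averaged 2986 TPM. The phosphate carrier Slc25a3 followed at 585 TPM, the oxoglutarate/malate carrier Slc25a11 at 225 TPM and the aspartate-glutamate carrier Slc25a12 at 199.7 TPM. Together these 4 genes held 89.9% ± 0.494 of the family's TPM in Young, 90.6% ± 0.554 in Fluo-4 normal and 87.3% ± 0.7 in Fluo-4 abnormal samples (SD, n = 4 each). The next 4 were Slc25a5 (79.3 TPM), Slc25a51 (50.6 TPM), Slc25a20 (48.6 TPM) and Slc25a39 (46.1 TPM). Slc25a31, Slc25a41 and Slc25a54 were listed at 0 in every sample, and Slc25a48 stayed under the mean of 0.02 TPM that at least 1 group had to reach, so 43 members were tested. The remaining member means ran from the 29.5 TPM of the pyrimidine nucleotide carrier Slc25a33 down to the 0.00692 TPM of Slc25a21.

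**Figure D1:**
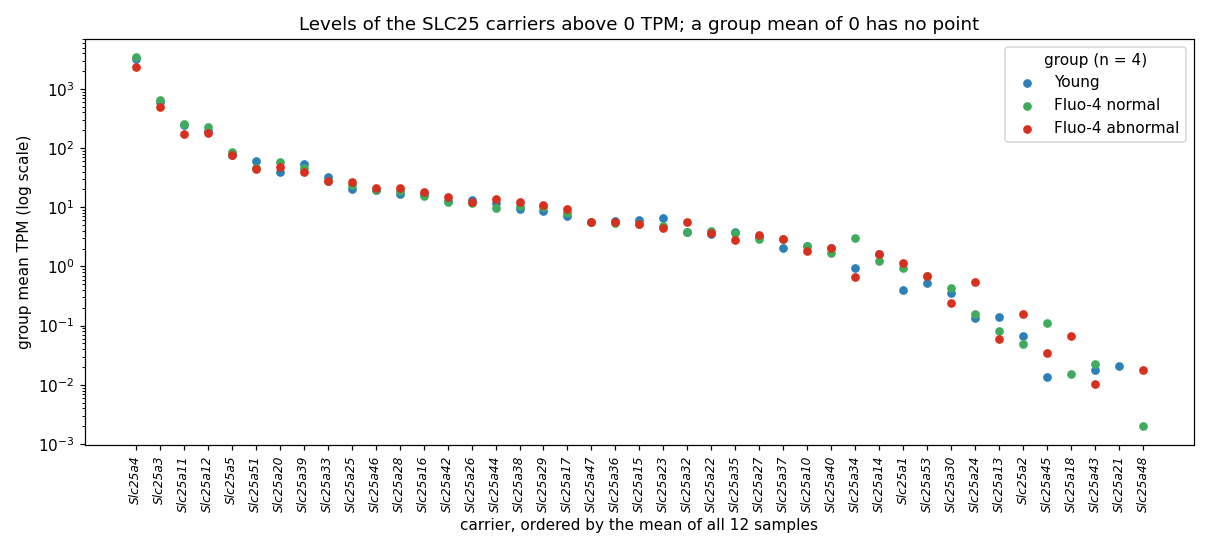
Group mean TPM of 43 carriers above 0 on a log axis, ordered by the mean of all 12 samples, with 1 point per group (n = 4). Slc25a4 stands above 1000 TPM, Slc25a3, Slc25a11 and Slc25a12 above 100 TPM, and the rest spread over 4 further orders of magnitude.

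The family as a whole took 0.469% of all TPM in Young samples, 0.503% in Fluo-4 normal and 0.368% in Fluo-4 abnormal samples. The summed TPM was 4688 ± 125 in Young, 5027 ± 113 in Fluo-4 normal and 3683 ± 167 in Fluo-4 abnormal samples (SD, n = 4). The highest abnormal sum, 3858, was below the lowest normal sum, 4940, and the lowest young sum, 4535. Without Slc25a4 the sums were 1520 ± 18.6, 1611 ± 105 and 1311 ± 80.4. These sums are given as a description with no test, since they are set mostly by Slc25a4.

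In the comparison of Fluo-4 abnormal with Fluo-4 normal fibers of aged mice, which asks what goes with the staining pattern at the same age, the 4 most abundant carriers fell and most others did not pass the test. Slc25a4, Slc25a3, Slc25a11, Slc25a12 and the orphan carrier Slc25a34 were lower, and Slc25a24, an ATP-Mg/phosphate carrier, was higher. In limma's moderated test on log2(TPM + 1), with Benjamini-Hochberg adjustment over 14427 genes at 0.05, 5 of 43 tested members (11.6%) were lower, where 1.99% of all genes tested were lower. In the other direction 1 of 43 (2.33%) was higher against 7.36% of all genes. In 6 members every abnormal sample lay below every normal one (2.54% of all genes), and in 2 every abnormal sample lay above (11.5% of all genes). The median change of the 43 members was 0.02, against 0.10 for all genes, on the log2(TPM + 1) scale, and 18 of them were below 0. The 4 members above 100 TPM had a median of -0.47, while of the 870 genes at that level 16.9% were lower and 19.5% higher, with a median of 0.10. Leaving out any 1 sample left 4 or 5 members lower.

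**Figure D2:**
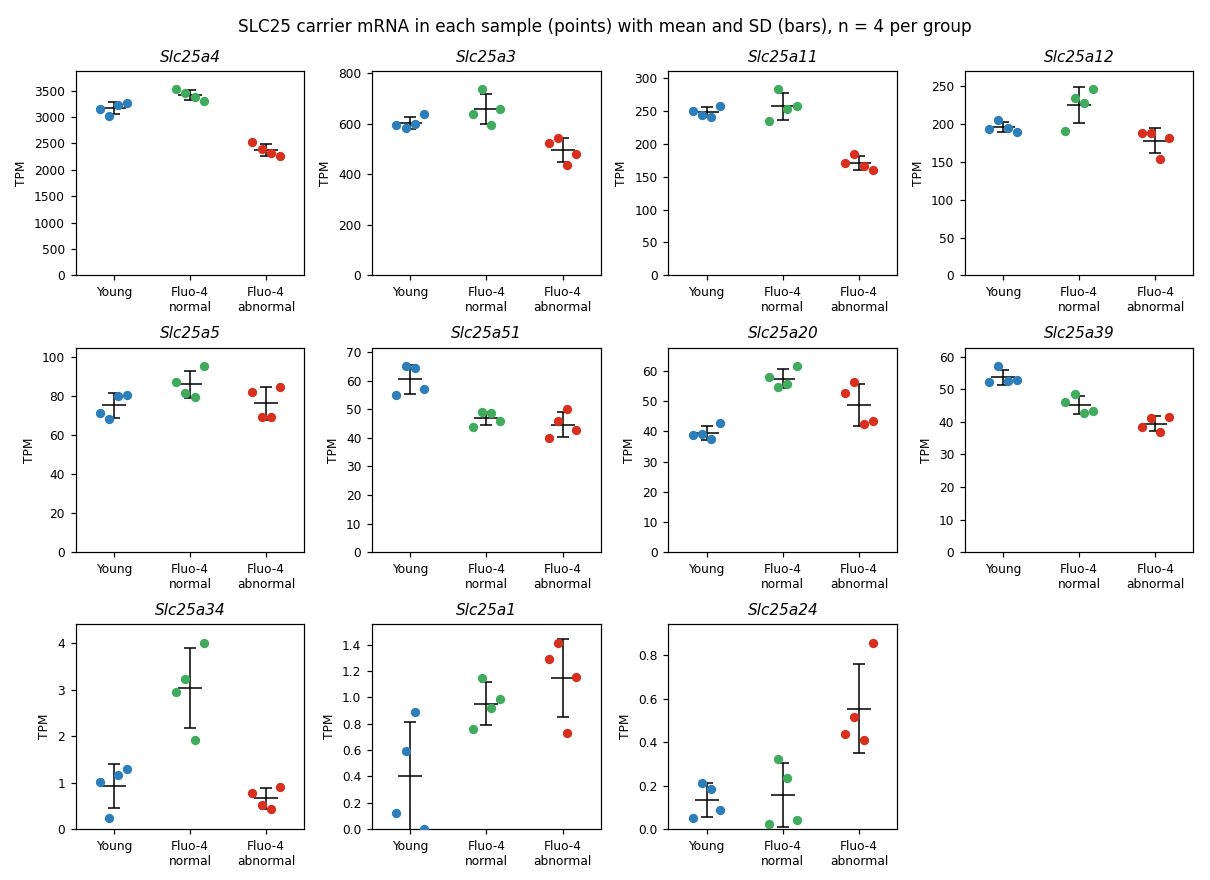
TPM of 10 carriers called in any comparison, and of Slc25a5, in each sample, with group mean and SD (n = 4) and axes that start at 0, where bars are cut. For Slc25a4, Slc25a3, Slc25a11, Slc25a12 and Slc25a34 the 4 abnormal samples lie below the 4 normal ones, and for Slc25a24 they lie above.

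The ADP/ATP carriers came first in level. Slc25a4 lies on the minus strand at chr8:46656538-46664325 (GRCm39). It was at 3145, 3022, 3232 and 3274 TPM in the Young samples, 3526, 3452, 3387 and 3299 TPM in the Fluo-4 normal samples, and 2525, 2388, 2312 and 2265 TPM in the Fluo-4 abnormal samples. Every abnormal sample was below every other sample, while each normal sample was above all of the young ones. The abnormal mean was 0.694 of the normal mean, a log2 change of -0.53 ± 0.07 (SE) with adjusted p = 0.00073, and lower in 4 of 4 same-numbered pairs (-0.48 to -0.55). Slc25a5, or adenine nucleotide translocase 2, the form used more by proliferating and non-muscle cells, was at 71.6, 68.5, 80.4 and 81.0 TPM in Young, 87.4, 81.6, 79.9 and 95.5 TPM in normal, and 82.3, 69.2, 69.3 and 85.1 TPM in abnormal samples. Its 3 groups overlapped. The difference in Slc25a5 between abnormal and normal was -0.17 ± 0.09 (adjusted p = 0.26). The ratio of Slc25a4 to Slc25a5 was 42.2 ± 2.14 in Young, 39.9 ± 3.69 in normal and 31.3 ± 3.5 in abnormal samples. The third member, Slc25a31, was at 0.

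Whether reads of the 2 ADP/ATP carriers could be told apart was looked at in their coding sequences (GENCODE mouse release 39). Slc25a4 and Slc25a5 share 698 of 900 aligned coding positions (77.6%), and their longest stretch without a difference is 20 bases. That stretch lies in coding bases 286 to 375, in which 19 of 90 bases differ. The windows are shown with the differing bases in capitals, from chr8:46662282-46662371 on the minus strand for Slc25a4 and from chrX:36060670-36060759 on the plus strand for Slc25a5 (GRCm39).
Slc25a4: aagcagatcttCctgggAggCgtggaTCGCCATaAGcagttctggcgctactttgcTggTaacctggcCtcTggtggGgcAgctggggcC
Slc25a5: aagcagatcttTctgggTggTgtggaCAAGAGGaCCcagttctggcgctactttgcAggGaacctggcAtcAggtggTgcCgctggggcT
Slc25a5 also has 2 near-identical copies elsewhere in the genome, on chromosomes 1 and 5, with 97.1% and 97.8% identity over 93.5% of its transcript, so its level is uncertain. No copy of at least 95% identity over at least 50% of the transcript was found for Slc25a4.

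Slc25a3 is the carrier that brings phosphate, and also copper, into the matrix. It was at 594, 583, 598 and 637 TPM in Young, 638, 735, 594 and 657 TPM in normal and 524, 542, 435 and 480 TPM in abnormal samples. All abnormal samples were below all samples of both other groups. The log2 change between abnormal and normal was -0.41 ± 0.08 (adjusted p = 0.0091, 0.00067 to 0.14 over the alternatives), with 4 of 4 pairs lower. An antisense long non-coding gene, Gm56945, shares 722 exon bases with Slc25a3, and the library does not mark strand.

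The 4 ATP-Mg/phosphate carriers exchange adenine nucleotides for phosphate, under the control of calcium in Slc25a23, Slc25a24 and Slc25a25, and 1 of them passed the test. Slc25a24 was at 0.049, 0.211, 0.186 and 0.089 TPM in Young, 0.025, 0.324, 0.234 and 0.041 TPM in normal and 0.437, 0.513, 0.410 and 0.855 TPM in abnormal samples. Every abnormal sample was above every sample of the other groups, at levels under 1 TPM. The log2 change was 0.43 ± 0.11 (adjusted p = 0.024), which the pseudocount of 1 makes small beside the 3.55-fold ratio of the means. Without Fluo-4 normal replicate 1 or 4, or Fluo-4 abnormal replicate 2 or 4, the adjusted p was 0.071, 0.068, 0.063 and 0.056. The range over all 21 alternatives that gave a value was 0.021 to 0.22. Slc25a24 shares 307 exon bases with the antisense gene Gm19391. Slc25a25, the highest of the group at 23.6 TPM, had a difference of 0.22 ± 0.23 (adjusted p = 0.57), Slc25a23 one of -0.10 ± 0.15 (adjusted p = 0.73), and Slc25a41 was at 0.

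The abundant carriers of the malate-aspartate shuttle, Slc25a11 and Slc25a12, were lower. Slc25a11 exchanges oxoglutarate for malate and was at 250, 244, 240 and 257 TPM in Young, 234, 283, 253 and 257 TPM in normal and 170, 185, 166 and 160 TPM in abnormal samples. No abnormal sample reached any of the other 8, and young and normal samples overlapped. The log2 change was -0.59 ± 0.07 (adjusted p = 0.00052), or 0.664 of the normal mean, with 4 of 4 pairs lower. The exons of Slc25a11 share 189 bases with Rnf167 on the other strand. Slc25a12, or aralar, exports aspartate for glutamate and was at 194, 206, 195 and 190 TPM in Young, 191, 235, 228 and 246 TPM in normal and 189, 188, 153 and 182 TPM in abnormal samples. The abnormal samples were below all others, but the highest of them, 188.5 TPM, came close to normal replicate 1 at 191.4 TPM. The log2 change was -0.34 ± 0.09 (adjusted p = 0.027). In the pairs it was -0.02, -0.32, -0.57 and -0.43. The call for Slc25a12 was lost when any of 6 single samples was left out, with adjusted p of 0.076 without normal replicate 2, 0.053 without abnormal 2, 0.054 without normal 3, 0.07 without abnormal 3, 0.075 without normal 4 and 0.054 without abnormal 4. Over all alternatives the adjusted p ran from 0.00061 to 0.54. The ratio of Slc25a11 to Slc25a12 was 1.27 ± 0.0738 in Young, 1.14 ± 0.0834 in normal and 0.963 ± 0.0921 in abnormal samples.

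The other members of these groups did not pass the test between abnormal and normal fibers. Slc25a13, or citrin, the aspartate-glutamate carrier of liver, was under 0.4 TPM in every sample. The glutamate carriers Slc25a22 and Slc25a18 had differences of -0.10 ± 0.17 and 0.07 ± 0.06. The citrate carrier Slc25a1, the dicarboxylate carrier Slc25a10 and the oxodicarboxylate carrier Slc25a21 had differences of 0.13 ± 0.19, -0.20 ± 0.22 and 0.00 ± 0.04. The adjusted p-values of these members ran from 0.56 to 1.0.

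Slc25a34 has no transported substrate assigned with certainty. It was at 1.01, 0.235, 1.16 and 1.29 TPM in Young, 2.95, 3.23, 1.92 and 4.00 TPM in normal, and 0.781, 0.526, 0.428 and 0.898 TPM in abnormal samples. All normal samples were above all samples of the other groups, and young and abnormal samples overlapped. The log2 change between abnormal and normal was -1.26 ± 0.21 (adjusted p = 0.0040, 0.0017 to 0.23 over the alternatives), with the abnormal mean at 0.217 of the normal mean. Its relative, Slc25a35, had a difference of -0.30 ± 0.18 (adjusted p = 0.32). Other members of this group, from the outer-membrane protein Slc25a46 at 20.1 TPM to Slc25a43 at 0.0168 TPM, had adjusted p-values of 0.18 or more. The 230 exon bases that Slc25a47 and Slc25a29 share on opposite strands leave the assignment of those reads uncertain.

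Promoters are printed for 3 of the members that were lower in abnormal than in normal fibers, those with the lowest adjusted p. They are read for AAGGTCA, a short motif that estrogen-related receptors recognise in many genes of mitochondrial energy supply. The other lower members, Slc25a3 and Slc25a12, held 0 matches. The 250 bases before the annotated start were taken from RefSeq (GRCm38.p6), with AAGGTCA on either strand in capitals. The positions are chr8:46211063-46211312 for Slc25a4, chr11:70647040-70647289 for Slc25a11 and chr4:141623835-141624084 for Slc25a34, each on the minus strand.
Slc25a4: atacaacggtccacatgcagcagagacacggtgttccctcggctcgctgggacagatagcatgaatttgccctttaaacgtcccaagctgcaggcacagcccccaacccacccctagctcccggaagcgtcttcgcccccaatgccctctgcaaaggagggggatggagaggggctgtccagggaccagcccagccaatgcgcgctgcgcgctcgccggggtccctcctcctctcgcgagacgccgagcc
Slc25a11: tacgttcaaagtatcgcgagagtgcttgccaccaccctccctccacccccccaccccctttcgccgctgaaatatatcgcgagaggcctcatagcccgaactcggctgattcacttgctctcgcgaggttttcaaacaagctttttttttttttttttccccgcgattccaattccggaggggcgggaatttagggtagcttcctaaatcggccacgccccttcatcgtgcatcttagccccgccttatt
Slc25a34: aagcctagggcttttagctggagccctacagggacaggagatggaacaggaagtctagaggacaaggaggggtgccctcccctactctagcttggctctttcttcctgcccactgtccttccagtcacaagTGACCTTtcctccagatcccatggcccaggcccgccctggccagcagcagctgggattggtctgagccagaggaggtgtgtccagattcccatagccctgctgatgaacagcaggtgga
The match in Slc25a34 begins 119 bases before the start, on the opposite strand. Of the 36 members with a promoter in the table, 1 held the motif (2.78%), and 4.16% of 16739 protein-coding genes did. A match is a description of letters and not of binding.

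The remaining substrate groups held no member that passed the test between abnormal and normal fibers. Among the 5 carriers of other amino acids the differences ran from 0.02 for the ornithine carrier Slc25a15 to 0.46 for Slc25a44, which brings branched-chain amino acids into mitochondria. Slc25a44 was at 12.4, 12.7, 12.5 and 9.71 TPM in Young, 7.17, 10.8, 10.6 and 10.6 TPM in normal and 10.8, 17.0, 14.5 and 13.2 TPM in abnormal samples. The abnormal samples overlapped the normal ones at 10.8 TPM. Slc25a44 was called higher in abnormal than normal in the fit with the replicate block (adjusted p = 0.016) but not without it (0.46 ± 0.16, adjusted p = 0.079). With the block 2281 of all 14427 genes were called in either direction, and without it 1349. Slc25a20, the carnitine/acylcarnitine carrier of fatty acid oxidation, had a difference of -0.24 ± 0.09 (adjusted p = 0.12). The glutathione carrier Slc25a39 and the coenzyme A carrier Slc25a42 had abnormal samples that did not overlap the normal ones, with differences of -0.19 ± 0.07 (adjusted p = 0.10) and 0.29 ± 0.12 (adjusted p = 0.14). Among the other cofactor and nucleotide carriers the differences ran from -0.07 for Slc25a51 to 0.43 for Slc25a32. The pyrimidine nucleotide carriers Slc25a33 and Slc25a36 differed by 0.02 ± 0.11 and 0.07 ± 0.19, and the S-adenosylmethionine carrier Slc25a26 by 0.03 ± 0.11. Slc25a16 differed by 0.25 ± 0.13, the glycine carrier Slc25a38 by 0.22 ± 0.14, the basic amino acid carrier Slc25a29 by 0.09 ± 0.19 and Slc25a46 by 0.12 ± 0.10. Slc25a40, the relative of Slc25a39, differed by 0.18 ± 0.18, and a copy on chromosome 9 matches 54.8% of its transcript at 96.3% identity, so its level is uncertain. The iron carriers Slc25a28 and Slc25a37 differed by 0.15 ± 0.14 and 0.03 ± 0.18, and the uncoupling-protein-like members Slc25a27, Slc25a14 and Slc25a30 by 0.19 ± 0.17, 0.22 ± 0.18 and -0.20 ± 0.12.

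Against Young, Slc25a4, Slc25a3 and Slc25a11 were lower in the abnormal fibers, as were the NAD carrier Slc25a51 and the glutathione carrier Slc25a39. This comparison shares the abnormal samples with the one above. Slc25a40, the relative of Slc25a39, differed by -0.01 ± 0.18 (adjusted p = 0.99). Of the 43 members, 6 were lower (14.0%, with 2.41% of all genes) and 2 were higher (4.65%, with 6.09% of all genes). Slc25a4 had a change of -0.42 ± 0.07 (adjusted p = 0.0021), Slc25a11 one of -0.54 ± 0.07 (adjusted p = 0.00048) and Slc25a3 one of -0.29 ± 0.08 (adjusted p = 0.044). Slc25a12 did not pass the test, at -0.14 ± 0.09 (adjusted p = 0.35), but was called lower with trimmed-mean factors (-0.32, adjusted p = 0.015), in a range of 0.015 to 0.72 over the alternatives. With those factors 9 members were lower (4.8% of all genes) and 1 higher (3.09%), and Slc25a23 (-0.61, adjusted p = 0.024) and Slc25a33 (-0.38, adjusted p = 0.039) were the other members gained. The call for Slc25a3 was lost without any 1 of the 4 Young samples, abnormal replicate 3 or 4, or normal replicate 4, with adjusted p from 0.062 to 0.13 in those fits and from 0.0040 to 0.13 over all alternatives.

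Slc25a51, the NAD carrier, was at 55.0, 65.0, 64.5 and 57.1 TPM in Young, 43.8, 48.8, 48.6 and 45.7 TPM in normal and 39.9, 45.9, 49.9 and 42.6 TPM in abnormal samples. Slc25a39 was at 52.1, 57.1, 52.5 and 52.9 TPM in Young, 46.1, 48.6, 42.6 and 43.5 TPM in normal and 38.5, 41.2, 36.8 and 41.3 TPM in abnormal samples. Slc25a39 shares 814 exon bases with Rundc3a on the other strand. For both carriers, every aged sample of both kinds lay below every young one, and for Slc25a51 the aged groups overlapped. Against Young, the abnormal samples changed by -0.43 ± 0.08 for Slc25a51 (adjusted p = 0.0078) and -0.43 ± 0.07 for Slc25a39 (adjusted p = 0.0024). These calls, and those of Slc25a4 and Slc25a11, held in all 22 alternatives.

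The higher pair in the abnormal fibers was at low levels. Slc25a24 changed by 0.45 ± 0.11 (adjusted p = 0.020), and this was lost without Young replicate 1 (adjusted p = 0.065), Young replicate 4 (0.066), abnormal replicate 2 (0.051) or abnormal replicate 4 (0.052), within a range of 0.015 to 0.066 over the alternatives. Slc25a1, the citrate carrier, was at 0.121, 0.591, 0.891 and 0 TPM in Young and 0.757, 1.14, 0.919 and 0.99 TPM in normal samples. In abnormal samples it was at 1.29, 1.41, 0.728 and 1.15 TPM, and the 3 groups overlapped. The normal samples differed from Young by 0.52 ± 0.19 (adjusted p = 0.22). The change of 0.65 ± 0.19 in abnormal against Young (adjusted p = 0.046) was lost in 17 of 22 alternatives, among them 9 that left out 1 sample. Those were Young replicates 1 (adjusted p = 0.14), 2 (0.060) and 4 (0.15), normal replicates 2 (0.065), 3 (0.062) and 4 (0.067), and abnormal replicates 1 (0.097), 2 (0.13) and 4 (0.10). The range over all alternatives was 0.020 to 0.20. In the blocked fit Slc25a28, an iron carrier, was also higher, at 0.30 with adjusted p = 0.022 (adjusted p = 0.21 without the block), so 3 members were then higher. That fit called 1998 of all 14427 genes in either direction, where the main fit called 1226. With the Myh4 share as covariate 3 were higher as well, with Slc25a37 (0.57, adjusted p = 0.049) and Slc25a38 (0.51, adjusted p = 0.047) gained and Slc25a1 lost.

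**Figure D3:**
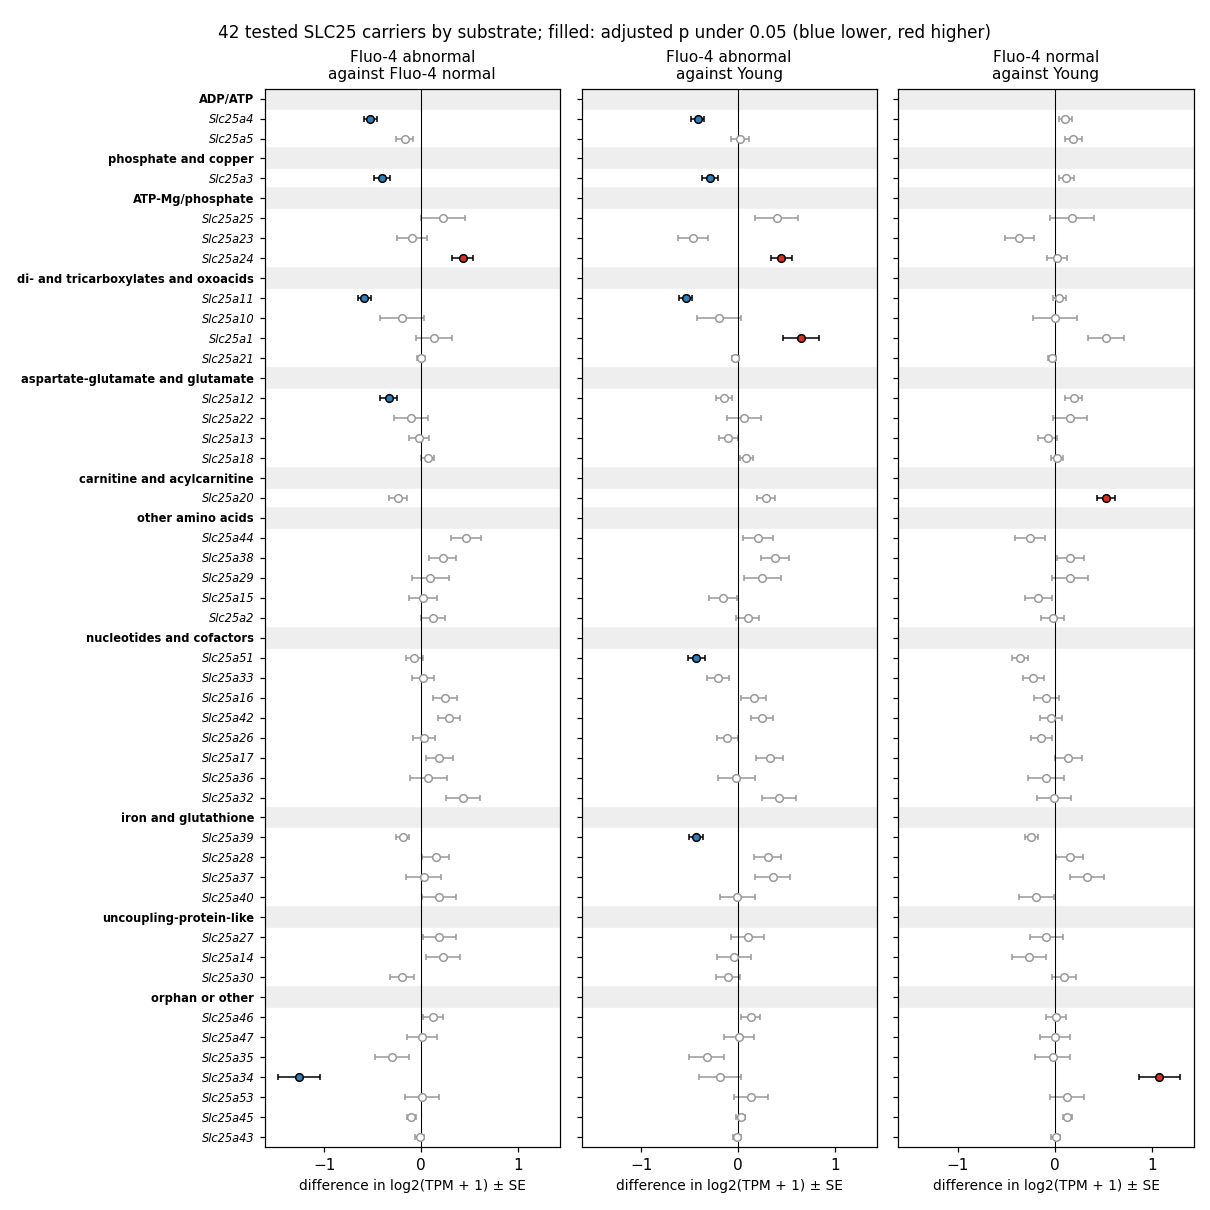
Difference in log2(TPM + 1) with its SE for 42 tested carriers, grouped by substrate, in the 3 comparisons. Filled points have an adjusted p under 0.05, blue for lower and red for higher. Filled blue points in the first comparison are Slc25a4, Slc25a3, Slc25a11, Slc25a12 and Slc25a34.

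In the comparison of Fluo-4 normal fibers of aged mice with Young, which sets aged fibers of normal staining beside young ones, limma called 0 of 43 members lower (0.589% of all genes, 4 members at an unadjusted p under 0.05) and 2 higher (4.65%, with 0.561% of all genes). Slc25a20 was at 38.7, 39.2, 37.5 and 42.9 TPM in Young, 57.9, 54.8, 55.7 and 61.6 TPM in normal and 52.8, 56.3, 42.5 and 43.4 TPM in abnormal samples. All normal samples were above all young ones, and the abnormal samples overlapped both. Slc25a20 rose by 0.53 ± 0.09 (adjusted p = 0.017). Without Young replicate 1, 2 or 3 or normal replicate 4 the adjusted p was 0.056, 0.072, 0.071 and 0.069, with a range of 0.0097 to 0.085 over all alternatives. Against Young, the abnormal samples differed in Slc25a20 by 0.29 ± 0.09 (adjusted p = 0.076). Slc25a34 rose by 1.08 ± 0.21 (adjusted p = 0.031), and this was lost in 14 of 22 alternatives, 8 of them with 1 sample left out. The adjusted p was 0.077 without Young replicate 1, 0.090 without Young 2, 0.077 without Young 3, 0.050 without normal 1, 0.052 without abnormal 1, 0.098 without normal 2, 0.055 without abnormal 2 and 0.10 without normal 4. The range over the alternatives was 0.015 to 0.14. With the replicate block, 2 members were lower in place of 0, among them Slc25a51 (-0.36, adjusted p = 0.022), which had an adjusted p of 0.061 without it. The blocked fit called 512 of all 14427 genes in either direction, where the main fit called 166. The changes of Slc25a4, Slc25a3, Slc25a11 and Slc25a12 were 0.11 ± 0.07, 0.12 ± 0.08, 0.05 ± 0.07 and 0.19 ± 0.09, with adjusted p-values of 0.37 or more.

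Scaling of the samples bears on these values. All genes had a median change of 0.10 between abnormal and normal samples, and with trimmed-mean factors this became 0.00. The factors differed between these groups by a mean of 0.23 on the log2 scale, which abundant genes moved by in full and genes near the pseudocount by less. On that scale 3.76% of all genes were lower and 2.12% higher, where the deposited scale gave 1.99% and 7.36%. The 43 members had a median of -0.12 with 29 below 0, and 8 were lower and 1 higher. The 8 were the 5 above with Slc25a20 (-0.47, adjusted p = 0.024), Slc25a39 (-0.41, adjusted p = 0.011) and Slc25a51 (-0.29, adjusted p = 0.046), and the changes of Slc25a4 and Slc25a11 were -0.75 and -0.81. The adjusted p over all alternatives ran from 0.00017 to 0.056 for Slc25a4 and from 9.7e-05 to 0.056 for Slc25a11, and was highest for both in the blocked fit that also held the Myh4 share. The Myh4 share moved with the fiber groups, and Slc25a3 and Slc25a12 were not called once it was a covariate (adjusted p of 0.11 and 0.29). With the replicate block added to the Myh4 share, limma called 0 members between abnormal and normal fibers (4 lower and 3 higher at an unadjusted p under 0.05) and 22 of all 14427 genes (0.0555% lower and 0.097% higher). The changes in that fit were -0.47 for Slc25a4, -0.48 for Slc25a11, -0.98 for Slc25a34, -0.29 for Slc25a3 and -0.18 for Slc25a12, with adjusted p-values of 0.056, 0.056, 0.23, 0.14 and 0.54, and 0.54 for Slc25a24 (adjusted p = 0.22).

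Genes whose products work beside the carriers were read from 2 lists. In the list of 12 shuttle enzymes, 6 were lower and 1 higher in abnormal than in normal fibers, beside 1.99% and 7.36% of all genes, with a list median of -0.31 against 0.10 for all genes. The 6 lower enzymes all averaged above 100 TPM, where 16.9% of genes were lower and 19.5% higher. Ckmt2, the mitochondrial creatine kinase that uses the ATP exported by Slc25a4, was at 1040, 1069, 1072 and 1142 TPM in Young, 1074, 1421, 1077 and 1082 TPM in normal and 496, 315, 183 and 283 TPM in abnormal samples, with no overlap between abnormal and any other sample. Its change was -1.94 ± 0.21 (adjusted p = 0.00049). The cytosolic and mitochondrial enzymes of the malate-aspartate shuttle changed by -1.02 ± 0.11 for Got1 (adjusted p = 0.00049), -0.42 ± 0.09 for Got2 (adjusted p = 0.011), -0.64 ± 0.08 for Mdh1 (adjusted p = 0.00073) and -0.30 ± 0.07 for Mdh2 (adjusted p = 0.018), beside the -0.59 of Slc25a11 and the -0.34 of Slc25a12. Cpt1b, which makes the acylcarnitines that Slc25a20 imports, fell by 0.32 ± 0.09 (adjusted p = 0.036). Gpd2, the mitochondrial enzyme of the other NADH shuttle, the glycerol phosphate shuttle, was higher by 0.53 ± 0.12 (adjusted p = 0.018). Its means were 80.61 TPM in Young, 61.23 TPM in normal and 87.65 TPM in abnormal samples. Between abnormal and Young samples Gpd2 differed by 0.12 ± 0.12 (adjusted p = 0.63).

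In the list of 16 other inner-membrane transporters and related proteins, limma called 2 lower and 0 higher in abnormal than in normal fibers. At an unadjusted p under 0.05 there were 2 and 2, and of all genes 1.99% were called lower and 7.36% higher. The 2 lower ones were both subunits of the mitochondrial pyruvate carrier, Mpc1 (-0.27 ± 0.07, adjusted p = 0.038) and Mpc2 (-0.56 ± 0.10, adjusted p = 0.0044). Both averaged above 100 TPM, where 16.9% of genes were lower in this comparison. Mpc2 was at 722, 663, 658 and 743 TPM in Young, 768, 706, 591 and 709 TPM in normal and 550, 467, 410 and 462 TPM in abnormal samples, the abnormal ones all below the others. The list median was 0.00. The other 14 had adjusted p-values of 0.13 or more. Against Young, 4 of 12 shuttle enzymes (Ckmt2, Got1, Mdh1, Mdh2) and 1 of 16 transporters (Mpc2) were lower and 0 of either list higher (0 and 1 at an unadjusted p under 0.05). Of all genes 2.41% were lower and 6.09% higher against Young. The called genes all averaged above 100 TPM, where 13.6% of genes were lower and 14.7% higher. Normal against Young gave 0 calls in each list, with 3 enzymes and 2 transporters at an unadjusted p under 0.05. In that comparison 0.589% of all genes were lower and 0.561% higher.

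**Figure D4:**
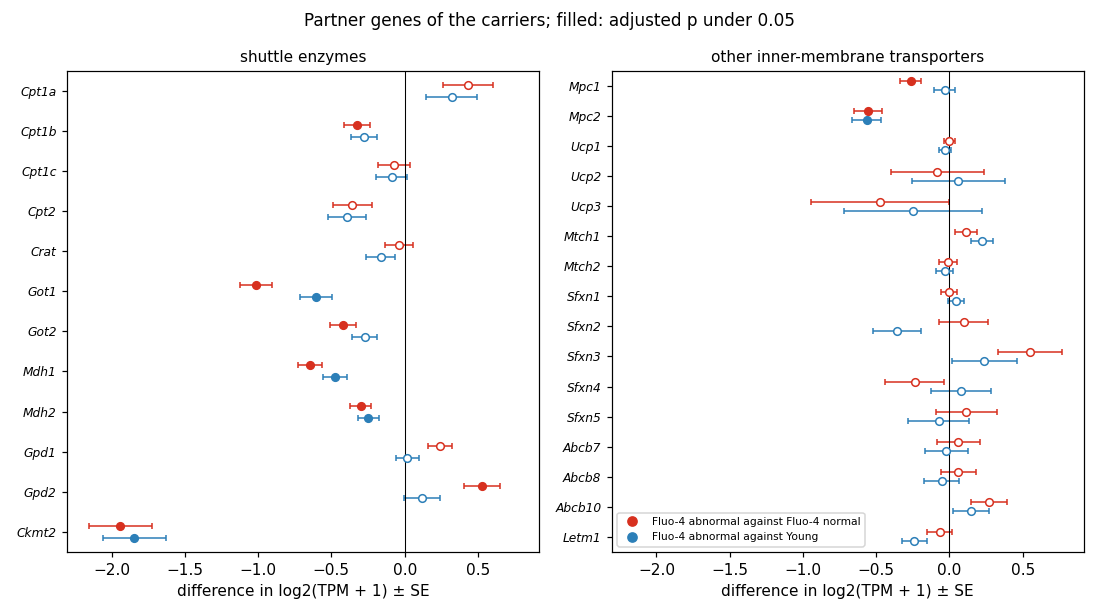
Difference in log2(TPM + 1) with its SE for 12 shuttle enzymes and 16 other inner-membrane transporters, abnormal against normal (red) and abnormal against Young (blue), filled where the adjusted p is under 0.05. Ckmt2 and Got1 lie farthest to the left, at -1.94 and -1.02 in abnormal against normal.

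Of 11 muscle fiber markers, 1 was lower and 1 higher in abnormal than in normal fibers, beside 1.99% and 7.36% of all genes. Myoglobin (Mb), the oxygen-binding protein of oxidative fibers, was at 989, 686, 763 and 1009 TPM in Young, 934, 1884, 1252 and 1128 TPM in normal and 471, 337, 166 and 211 TPM in abnormal samples, a change of -2.20 ± 0.29 (adjusted p = 0.00087), while Myh4 rose by 0.66 ± 0.16 (adjusted p = 0.020). The other 9 did not pass the test, among them the fast myosins Myh1 (-1.81 ± 0.63, adjusted p = 0.087) and Myh2 (-0.37 ± 0.60, adjusted p = 0.73) and the slow myosin Myh7 (0.15 ± 0.05, adjusted p = 0.11), whose means were 0.128 TPM in abnormal and 0.0175 TPM in normal samples. Markers of 8 other cell types, 4 for each, were also read, and 27 of them could be tested. Between abnormal and normal fibers limma called 0 of these (2 at an unadjusted p under 0.05, both higher). Schwann cell markers summed to 0.773 to 1.81 TPM in Young, 1.42 to 6.32 TPM in normal and 3.57 to 7.45 TPM in abnormal samples, and Mbp and Sox10 were higher in abnormal samples than in Young. Erythroid markers summed to 23.6 to 84.4 TPM in Young, 85.1 to 322 TPM in normal and 30.5 to 162 TPM in abnormal samples. Fibroblast markers summed to 18.02 to 33.05 TPM in Young, 23.09 to 77.88 TPM in normal and 13.18 to 58.4 TPM in abnormal samples. The highest erythroid and fibroblast sums were both in Fluo-4 normal replicate 2. The part of these in the carrier changes was not tested beyond the fits with the Myh4 share.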

How the data were processed

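RNA from single fibers of the extensor digitorum longus was amplified by the submitters with SMART-Seq v4 from 10 ng of total RNA, an unstranded poly(A)-primed method, and sequenced. Per the paper's methods the authors ran DRAGEN 4.3 on GRCm39 and deposited TPM per gene symbol, with no counts. The annotation release is not given in the sources used here. Each file held 55487 entries for 55367 symbols, and 114 symbols on several lines were summed. Symbols matched GENCODE names (49848), listed synonyms (114) or RefSeq (2520), and 2885 did not match. All 47 members matched.

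Protein-coding and mitochondrially-encoded genes with a group mean of at least 0.02 TPM were tested (14427). limma 3.58.1 (R 4.3.3, trend) was fitted to log2(TPM + 1) over 3 groups, with Benjamini-Hochberg adjustment over all genes. Changes on this scale understate those of low genes. The test was checked only on simulated independent samples, with changes larger than those of most called carriers. Smaller changes, changes in low genes and paired samples were not covered by that check. The members and lists were chosen with earlier results of these data known. Named members were those called in any comparison, those with a group mean of at least 10 TPM and the tissue isoforms of either (29 in all). Other members are named, after their values were seen, where they bound a range or complete a substrate group. Alternatives were trimmed-mean factors, scaling without mitochondrially-encoded genes, other filters (none, 1 TPM) and a pseudocount of 0.1, all annotated genes, Myh4 share as covariate, the compared groups alone, and each sample left out. Same-numbered aged samples correlated at 0.302 to 0.438 in their deviations over 5994 genes (-0.365 to 0.234 for other pairs), so the numbers were read as pairs, and the replicate block was an alternative. Promoters (RefSeq, GRCm38.p6) were used for letters only. BLAST 2.17.0 searched the genome for copies. Protein sequences were not used here. One member is counted but not reported here.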

Additional observations from a re-analysis of the deposited data

Results flagged for a closer look

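Of 81 sets of 4 samples checked (each named member above 0, in each group), 5 held 1 sample whose gap to the nearest other passed Dixon's 95% critical value, and chance flags about 1 in 20. Slc25a44 was at 9.707 TPM in Young replicate 4 (others 12.376 to 12.687) and at 7.166 TPM in Fluo-4 normal replicate 1 (others 10.568 to 10.848). Slc25a36, a pyrimidine nucleotide carrier, was at 4.336 TPM in Young replicate 4 (others 6.115 to 6.41), and Slc25a29, a carrier of basic amino acids, at 7.92 TPM in Fluo-4 abnormal replicate 1 (others 11.341 to 11.944). Slc25a13 was at 0.311 TPM in Fluo-4 normal replicate 4 and at 0 to 0.018 TPM in the others.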

How the results depend on the processing

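Between abnormal and normal fibers, the count of lower carriers was 8 with trimmed-mean factors, 3 with the Myh4 share as covariate, 3 with the compared groups alone, 0 with the replicate block and Myh4 share together, and 4 to 5 with 1 sample left out, against 5 in the main fit. The count of higher carriers, 1, became 0 with the 1 TPM filter, the compared groups alone or the replicate block with the Myh4 share, 2 with the replicate block, and 0 to 2 with 1 sample left out (0 without normal replicate 1 or 4 or abnormal replicate 2 or 4, 2 without abnormal replicate 1). Against Young, 2 higher became 1 with trimmed-mean factors, scaling without mitochondrially-encoded genes, no filter, the 1 TPM filter, a pseudocount of 0.1, all annotated genes or the compared groups alone, 3 with the replicate block or the Myh4 share, and 0 to 3 with 1 sample left out, while the 6 lower stayed within 5 to 9. Normal against Young had 2 higher, which became 1 with no filter, a pseudocount of 0.1, all annotated genes, the Myh4 share or the compared groups alone, 0 with the replicate block and Myh4 share together and 0 to 2 with 1 sample left out, and 0 lower, which became 1 with no filter, 2 with the 1 TPM filter, 2 with the replicate block and 0 to 1 with 1 sample left out. Calls over all 14427 genes, in both directions together, moved as well. Between abnormal and normal they were 1349 in the main fit, 848 with trimmed-mean factors and 2281 with the replicate block. With the Myh4 share they were 820, with the compared groups alone 566 and with block and Myh4 share together 22. In that order they were 1226, 1139, 1998, 1293, 1263 and 1068 in abnormal against Young. In normal against Young they were 166, 236, 512, 114, 69 and 70. The cause of these changes was not tested.

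Of 33 member changes under 22 alternatives, 630 values kept their direction and side of the threshold, 72 lost the threshold, 11 gained it and 10 changed sign. Slc25a24 had no value with the 1 TPM filter. The sign changes were in changes that did not pass the test: Slc25a1 in abnormal against normal (-0.0183 with the block and Myh4 share), Slc25a11 in normal against Young (-0.0251 with the Myh4 share, -0.0026 with the block as well, -0.0007 to 0.0898 with 1 sample left out, the lowest without normal replicate 2) and Slc25a24 in normal against Young (-0.0013 with a pseudocount of 0.1, -0.0550 with the Myh4 share, -0.0355 with the block as well, -0.0463 to 0.0768 with 1 sample left out, below 0 at -0.0146 without Young replicate 1 and at -0.0463 and -0.0124 without normal replicates 2 and 3). The replicate block changed no other call of a member than those printed beside the results. Depth is unknown, so the precision of members under 1 TPM rests on the spread of 4 samples.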
